A study of Mus musculus with 9 samples.

Results

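Rad21 binding was compared between CD4-CD8- (DN) and CD4+CD8+ (DP) thymocytes, using the peaks that had been called from 1 ChIP-seq library of each stage. Peaks on chromosomes 1 to 19 were kept, and those in the 6 antigen receptor loci, each with 100000 bp on both sides, were left out. This left 9468 of the 9701 DN peaks and 35647 of the 36743 DP peaks, together 45115 of the 190262 peaks in the 5 lists of the series, which also hold Rad21 and CTCF in pre-B cells and CTCF in pro-B cells cultured with IL7. The B-lineage cells came from C57BL/6 mice aged 6 to 14 weeks, the pro-B cells from Rag1-/- mice and the pre-B cells from RAG-/- mice carrying a µ heavy chain (µ+). DN thymocytes came from C57BL/6 Rag1-/- mice aged 4 to 8 weeks. DP thymocytes came from Rag1-/- mice of the same age that carried a rearranged TCRb transgene. Both stages therefore lack Rag1 and cannot rearrange their own receptor genes, and the DP stage is reached only through the transgene, so that stage and transgene cannot be told apart. Each list was called against the input of the same cells. With 1 library a stage there is no measure of the spread between animals, no test between stages was run, and the 95% intervals given below, all exact Clopper-Pearson intervals, cover counting error only. A Rad21 peak near a gene is not expression of that gene, so the peak lists cannot check the labelled cell types.

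Rad21 is a subunit of cohesin, the ring-shaped complex that holds DNA strands together and is thought to extrude chromatin loops. Loops are often halted where CTCF is bound, and most strong cohesin sites in mammalian cells coincide with CTCF, while weaker cohesin is also found at active promoters and enhancers, where its loader acts. In the thymus, DN cells that have made a TCRβ chain divide, switch on CD4 and CD8, and become DP cells, in which the TCRα chain is rearranged and the repertoire is selected.

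Overlapping peaks of the lists were joined into sites, which were shared, DN-only or DP-only. The sequences below show sites of each kind that the results turn on. Each is a run of mm9 around the best match to the CTCF consensus of the study's motif table, which has 12 letters, read on the strand given, with the match in capitals. Myb and Slco3a1 had a DP peak only, the sites beside Cd4, Dntt and Ctla4 ranked far higher in DP, those beside Lyl1 and Tmem135 ranked lower in DP, and Hs3st1 and Adra1b had a DN peak only. The matches at Cd4, Ctla4, Slco3a1, Lyl1, Hs3st1 and Adra1b carry 1 mismatch and those at Dntt, Myb and Tmem135 carry 2, so that close matches to the consensus occur in every kind of site. None of these runs lies in an annotated exon.
Myb, chr10:20878022-20878081, minus strand: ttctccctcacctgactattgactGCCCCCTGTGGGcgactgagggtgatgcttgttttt
Slco3a1, chr7:81700047-81700106, minus strand: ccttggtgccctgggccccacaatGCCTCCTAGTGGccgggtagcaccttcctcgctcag
Cd4, chr6:124853744-124853803, minus strand: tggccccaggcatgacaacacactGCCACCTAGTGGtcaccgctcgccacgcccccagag
Dntt, chr19:41090581-41090640, plus strand: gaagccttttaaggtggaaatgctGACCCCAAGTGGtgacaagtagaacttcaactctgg
Ctla4, chr1:60925432-60925491, plus strand: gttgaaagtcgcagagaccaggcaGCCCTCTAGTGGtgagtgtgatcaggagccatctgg
Lyl1, chr8:87233220-87233279, minus strand: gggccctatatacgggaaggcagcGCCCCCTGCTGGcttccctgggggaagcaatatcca
Tmem135, chr7:96275193-96275252, plus strand: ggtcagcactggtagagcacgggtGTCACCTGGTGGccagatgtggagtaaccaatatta
Hs3st1, chr5:40030870-40030929, plus strand: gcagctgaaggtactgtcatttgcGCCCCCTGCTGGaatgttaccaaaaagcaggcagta
Adra1b, chr11:43650038-43650097, minus strand: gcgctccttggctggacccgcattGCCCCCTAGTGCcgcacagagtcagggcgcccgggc

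Nearly every DN site was also called in DP thymocytes, whereas most DP sites had no DN counterpart. A DP peak overlapped 8952 of the 9468 DN peaks by 1 bp or more, which is 94.6% of the DN list (interval 94.1 to 94.999). A DN peak overlapped 8945 of the 35647 DP peaks, 25.1% of that list (24.6 to 25.5). The peaks formed 8918 shared, 516 DN-only and 26702 DP-only sites. The DN list is the shorter one and ends at a higher score, 86.45 against 57.72, where the score is the value MACS gave to each peak against input and serves here only as a rank within its own list. In the DP list the overlapped share climbed from 2.81% of the lowest decile of scores to 86.7% of the highest decile. In the DN list it was 88.5% in the lowest decile and 99.6% in the highest. The stages thus shared most of their strongest sites, and the DP list went on into weaker sites that the DN list does not hold.

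**Figure D1:**
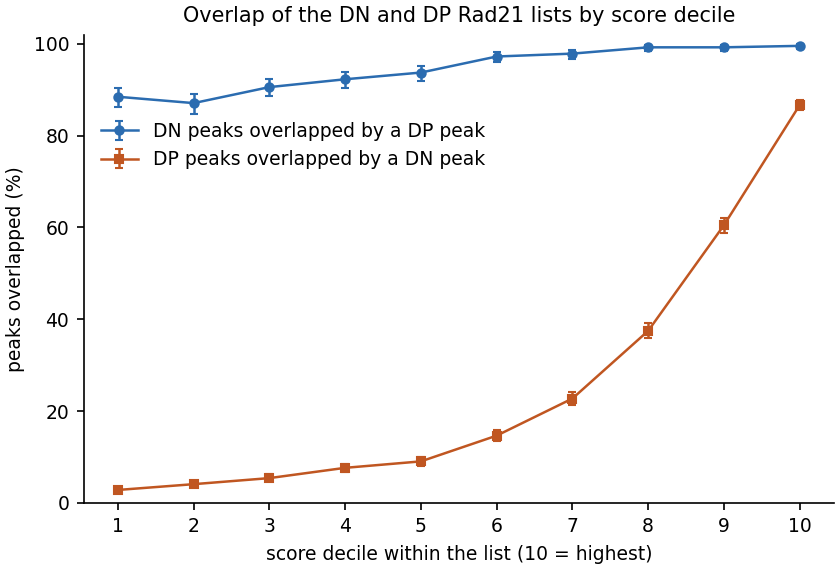
Share of peaks (%) in each decile of the scores of a list that the other list overlaps, for DN peaks (circles) and DP peaks (squares), with exact 95% intervals of counting error. The DN share stays between 87.1% and 99.6%, and the DP share climbs from 2.81% to 86.7%.

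To compare lists of equal length, the DP list was cut to its 9468 highest scores. The last DP peak kept had a score of 311.58 and the first one left out 311.57. A DP peak then overlapped 6204 DN peaks, 65.5% (64.6 to 66.5), and a DN peak overlapped 6174 of the DP peaks kept, 65.2% (64.2 to 66.2). This gave 6171 shared, 3264 DN-only and 3294 DP-only sites. These DN-only sites were mostly not absent from DP cells: 2747 of the 3264 had a peak further down in the complete DP list, with a median percentile of 57.2 there. Since the DN list was used whole, the same cannot be asked of the DP-only sites. The DP peaks kept were wider, with a median of 672 bp against 434 bp in the DN list, and results are given below by width where they move with it.

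The strong sites found in DP alone differed from the shared ones in where they lay. At equal length, 29.96% of DP-only sites (28.4 to 31.6) were within 1000 bp of the start of a coding transcript, against 12.4% of shared sites (11.6 to 13.3) and 8.06% of DN-only sites (7.15 to 9.04). Sites outside coding genes made up 35.8% of DP-only, 49.9% of shared and 50.6% of DN-only sites. Rad21 that ranked high in DP thymocytes and was not called in DN thymocytes was thus more often promoter-proximal. The consensus of CTCF went the other way. In a window of 301 bp around the peak centre, a match with at most 2 mismatches was held by 32.3% of DP-only sites (30.7 to 33.9), 57.4% of shared sites (56.1 to 58.6) and 52.8% of DN-only sites (51.0 to 54.5). Windows 2000 bp away held one in 3.98%, 4.55% and 4.26% of cases, so all kinds of site were far above neighbouring sequence.

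CTCF itself was measured only in the B lineage in these lists, and it separated the sites further. A CTCF peak of pre-B cells overlapped 98.0% of equal-length shared sites (97.7 to 98.4), 92.5% of DN-only sites (91.6 to 93.4) and 68.0% of DP-only sites (66.4 to 69.6). In the complete lists the shares were 96.8%, 84.3% and 47.9%. With CTCF peaks of the IL7-cultured pro-B cells added, at equal length, 99.2% of shared, 97.1% of DN-only and 77.8% of DP-only sites were covered. A Rad21 peak of pre-B cells overlapped 97.1% of shared, 88.5% of DN-only and 70.8% of DP-only sites at equal length, so most DP-only sites carried Rad21 in pre-B cells. Read from the DP side, 73.0% of the top DP sites under a pre-B CTCF peak (72.0 to 73.9, of 8291) were called in DN as well. Of the 1174 top DP sites without one, 10.3% were (8.63 to 12.2). The gap persisted at matched DP rank: in the highest decile of DP scores, 89.9% of 3383 sites with a pre-B CTCF peak and 26.4% of 182 sites without one were called in DN. It was also present away from starts, with 76.2% of 6959 sites against 13.4% of 751. At starts the values were 56.2% of 1332 and 4.73% of 423. Whether these sites hold CTCF in thymocytes was not analysed here.

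**Figure D2:**
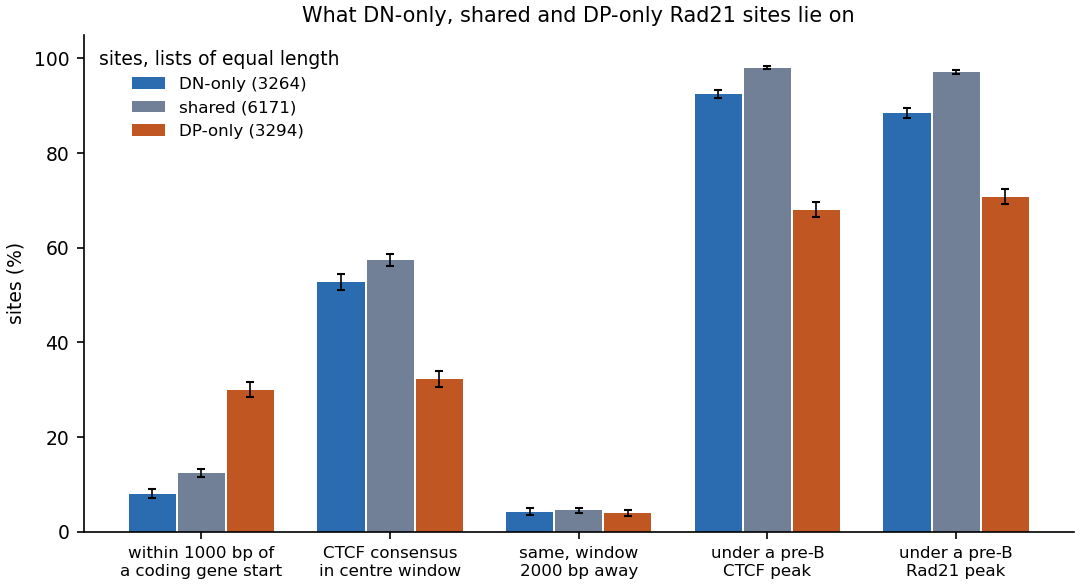
Share (%) of DN-only, shared and DP-only sites, in lists of equal length, that lie within 1000 bp of a coding start, hold the CTCF consensus in the centre window or in a window 2000 bp away, or lie under a pre-B CTCF or Rad21 peak, with exact 95% intervals of counting error. DP-only sites stand at 29.96% on starts and at 68.0% under pre-B CTCF peaks, against 12.4% and 98.0% of shared sites.

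The widest DP peaks sat on promoters, and the start share of DP-only sites moved with width. Among the sites with a DP peak under 1000 bp, 19.4% of 2416 DP-only and 10.2% of 5594 shared sites were at a start, so that the DP-only share fell from 29.96% by more than 1.5 times, and a pre-B CTCF peak overlapped 77.7% and 98.4%. Among equal-length sites with a DP peak of 2000 bp or more, 83 of 109 DP-only sites (76.1%) and 44 of 61 shared sites (72.1%) were at a start. A pre-B CTCF peak overlapped 40.4% of these wide DP-only sites and 88.5% of the shared ones. Short words bound by T cell factors were less telling and were searched after the other results had been seen, on both strands of the 301 bp window. The ETS word AGGAAGT was in 10.3% of equal-length DP-only windows, 7.96% of shared windows and 8.08% of the windows 2000 bp from DP-only sites. The E-box word CAGCTG was in 22.9%, 19.1% and 14.1%, respectively. The RUNX word TGTGGTT was in 7.92% of DP-only windows, the same share as in their neighbouring windows. In the complete lists, DP-only windows held the RUNX word in 9.68% and the ETS word in 12.3% of cases, against 7.65% and 7.67% of neighbouring windows. At equal length the TCF-LEF word CTTTGAT was in 3.70% of DP-only windows and of their neighbours, and the GATA word AGATAAG in 2.61% against 3.86%. A match is only a run of letters and is not a bound site.

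The 10 highest-scoring DP-only sites near a named coding gene were mostly broad and promoter-proximal. Of these, 6 were at a start, 8 were 2000 bp or wider, a pre-B CTCF peak overlapped 6 and a pre-B Rad21 peak overlapped 8. The first was at Myb, which encodes a transcription factor of blood progenitors and immature thymocytes: the peak at chr10:20877718-20881909 was 4192 bp wide, covered the Myb start and ranked 6 of 35647. The start of Satb1, a chromatin organiser that DP thymocytes express highly, carried a peak of 4033 bp at chr17:51970307-51974339, with rank 112. A peak of 4394 bp at chr5:108152029-108156422, with rank 185, is assigned by the rule to Evi5, whose span lies 17392 bp away. It covers the start of Gfi1, a zinc finger repressor of lymphoid cells, which the annotation does not type as coding. The other 7 were at Pip4k2a, Ppp1r3b, Slco3a1, Rreb1, Nsmce1, Ptpn14 and Bckdha, with scores of 1976.35 or more.

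The 10 highest-scoring DN-only sites of the complete lists lay between the percentiles of 69.3 and 89.5 of the DN list. Their widths ran from 274 to 591 bp, around the list median of 434 bp, and their scores from 203.6 to 318.47, above the median of 151.72. A pre-B CTCF peak overlapped 9 of them. They were at or near Adra1b, Taar6, Hs3st1, Gja1, Pde1a, Dtd1, Csmd1, Pknox2, Ryr2 and Mtap. Ryr2 is the calcium release channel of heart muscle and Gja1 a gap junction protein. At equal length none of these sites was named, and the first places went to sites near Syce1l, Prune2 and Cdk5rap2, so the names of DN-only genes depend on the length of the DP list.

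Among the 8918 shared sites the order of scores was kept in part. Each site was given its percentile among the shared sites in each list, and the Spearman correlation of these percentiles was 0.55, which describes sites of 1 library a stage and carries no test. Of the 892 sites in the highest decile of DN scores, 430 (48.2%) were in the highest decile of DP scores. A change of 30 points or more was called a gain or a loss of rank in DP, which 1198 sites (13.4%) and 1219 sites (13.7%) showed. By construction gains and losses nearly balance. Sites that gained rank were at a start in 18.4% of cases (16.3 to 20.8), and sites that lost rank in 7.47% (6.05 to 9.09). DP peaks of 1000 bp or more made up 16.2% of gained sites, 6.15% of steady sites and 0.492% of lost ones. This contrast follows in part from the classes, which the DP score sets and with which DP width rises. Median DP width was 672 bp in the equal-length DP list and 539 bp in the complete one. The median width of the DN peaks was 443.5 bp at gained and 425 bp at lost sites. A pre-B CTCF peak overlapped nearly all of both, 95.8% of gained and 97.9% of lost sites, and the CTCF consensus was held in the 301 bp centre window by 55.5% and 56.4%. Gained and lost sites thus differed in their share at starts and little in DN width, while nearly all of both lay where CTCF was called in pre-B cells.

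The largest gains were at sites near the bottom of the DN list. At a transcript start within Dusp10, a phosphatase that acts on stress-activated kinases, the DN peak had a percentile of 2.38 among shared sites and the DP peak 99.7, a gain of 97.4 points, and the DP peak was 4061 bp wide against 820 bp in DN. At the start of Mgat5, an enzyme that branches the sugars of surface proteins including the T cell receptor, the percentile went from 6.33 to 98.6. The other 8 were at or near Lrrc28, Nsmaf, Kifc5b, Naa16, Btbd9, Ppil1, Carns1 and Ext1, with gains of at least 79.8 points. All 10 lay under a pre-B CTCF peak. DN scores at these 10 sites lay between 86.71 and 97.86, close to the end of the list.

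The largest losses were at or near Syce1l, Tmem135, Deptor, Fggy, Rnf150, Marco, Sulf2, Mmp2, Vac14 and Kcnma1. At the site 9000 bp from Syce1l the percentile went from 98.8 in DN to 4.51 in DP. Marco is a scavenger receptor of macrophages, Mmp2 a matrix protease, Kcnma1 a potassium channel and Deptor an inhibitor of the mTOR kinase. None of the 10 DP peaks reached 1000 bp, and a pre-B CTCF peak overlapped all 10. With the DP list at equal length, 7 of the 10 gains and none of the 10 losses were named again, since the DP scores of all 10 losses then fall below the limit.

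Genes of T cell development were then examined, as 8 lists of genes with 20000 bp on each side. In lists of equal length, 26.6% of the 9861 sites near any coding gene were DP-only (25.7 to 27.5) and 24.02% were DN-only (23.2 to 24.9). Near the genes of T cell receptor signalling and the T cell surface, 44 of 86 sites were DP-only, 51.2% (40.1 to 62.1), and 2 were DN-only. Near T-lineage transcription factors, 46 of 88 sites were DP-only, 52.3% (41.4 to 63.04), and 5 were DN-only. Near the genes of the DP stage, 38 of 59 were DP-only, 64.4% (50.9 to 76.4), and 1 was DN-only. These lists share genes, among them Cd4, Cd8a and Cd8b1, so they are not separate evidence. Near genes of the DN stage the split was 10 DP-only to 7 DN-only sites of 36, and near B cell and myeloid genes it was 5 to 1 of 21. Cell cycle genes had 13 DP-only and 4 DN-only sites of 32, homing genes 11 and 3 of 29, and cohesin and CTCF genes 5 and 3 of 17. Neighbouring sites of a locus are not independent, and Cd4, Cd8a and Cd8b1 alone hold 5, 5 and 7 of the DP-only sites, with 1 counted for both Cd8 genes. With sites at starts left out, a setting added after the data had been seen, the DP-only share was 58.5% near DP stage genes, 43.3% near transcription factors, 40.6% near receptor signalling genes and 21.0% near all coding genes. With 50000 bp on each side it was 57.7%, 47.6%, 43.9% and 25.9% for these sets. It was then 31.7% near B cell and myeloid genes and 20% near cohesin and CTCF genes, so these lists changed sides.

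**Figure D3:**
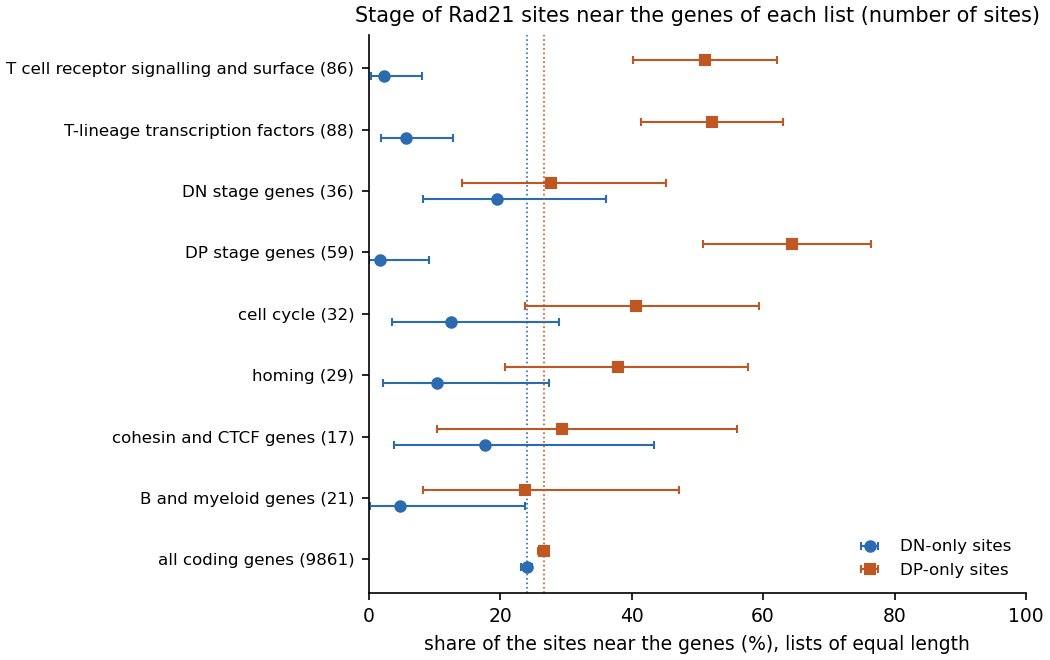
Share (%) of the Rad21 sites near the genes of each list that are DN-only (circles) or DP-only (squares), in lists of equal length, with exact 95% intervals of counting error and the number of sites in brackets. Dotted lines mark the shares near all coding genes, 24.02% and 26.6%. With the 20000 bp used here, all lists but the B cell and myeloid one lie above the DP line, and all lie below the DN line. The DP-only share is highest for DP stage genes.

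A gene can also be described by its strongest shared site, the one with the highest sum of both percentiles. Over all coding genes with a shared site, 958 of 7624 (12.6%) gained 30 points or more at it and 904 (11.9%) lost as much. Of the 114 list genes with a shared site, 18 gained and 3 lost. Genes with a site in DP and none in DN at equal length were 1316 of 18020 (7.30%), and the reverse held for 1688 (9.37%). Of the 159 list genes, 18 had a site in DP alone and 3 in DN alone. With percentiles taken in the complete lists and centred on their median, the changes at Ccnd1, Cd22, Cxcr4, Egr1, Gata3, Ikzf3, Itga4, Itgae, Notch1, Notch3 and Tox no longer reached 30 points, the smallest being 14.2 at Cxcr4, and none of them reversed. In that setting 1522 shared sites gained and 720 lost rank, and the share of coding genes was not computed. The share of list genes that gained was near that of all coding genes.

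At the co-receptor genes most DP sites had no DN peak. Cd4, the co-receptor for MHC class II, had 2 DN sites, both of which gained rank, and 5 further DP-only sites at equal length. At chr6:124853401-124854622, at -15772 bp from the Cd4 start, upstream of the gene, the percentile among shared sites went from 36.7 in DN to 92.6 in DP. At chr6:124809578-124810373, 28264 bp past the start and beyond the end of the gene, it went from 21.2 to 88.2. Cd8b1, a chain of the co-receptor for MHC class I, had no DN site and 19 DP sites, 7 of them in the DP list of equal length. The widest of these covered the Cd8b1 start with 4475 bp at a percentile of 96.3 of the DP list. None of the 7 lay under a pre-B CTCF or Rad21 peak. Its neighbour Cd8a had 5 DP-only sites at equal length, none of them under a pre-B CTCF peak, and 1 steady shared site that went from 80.6 to 69.97. At Cd4, 1 of the 5 DP-only sites lay under a pre-B CTCF peak, as did both shared sites and the shared site at Cd8a. At both loci the DP-only sites were thus mostly away from CTCF of pre-B cells and the shared sites were on it.

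**Figure D4:**
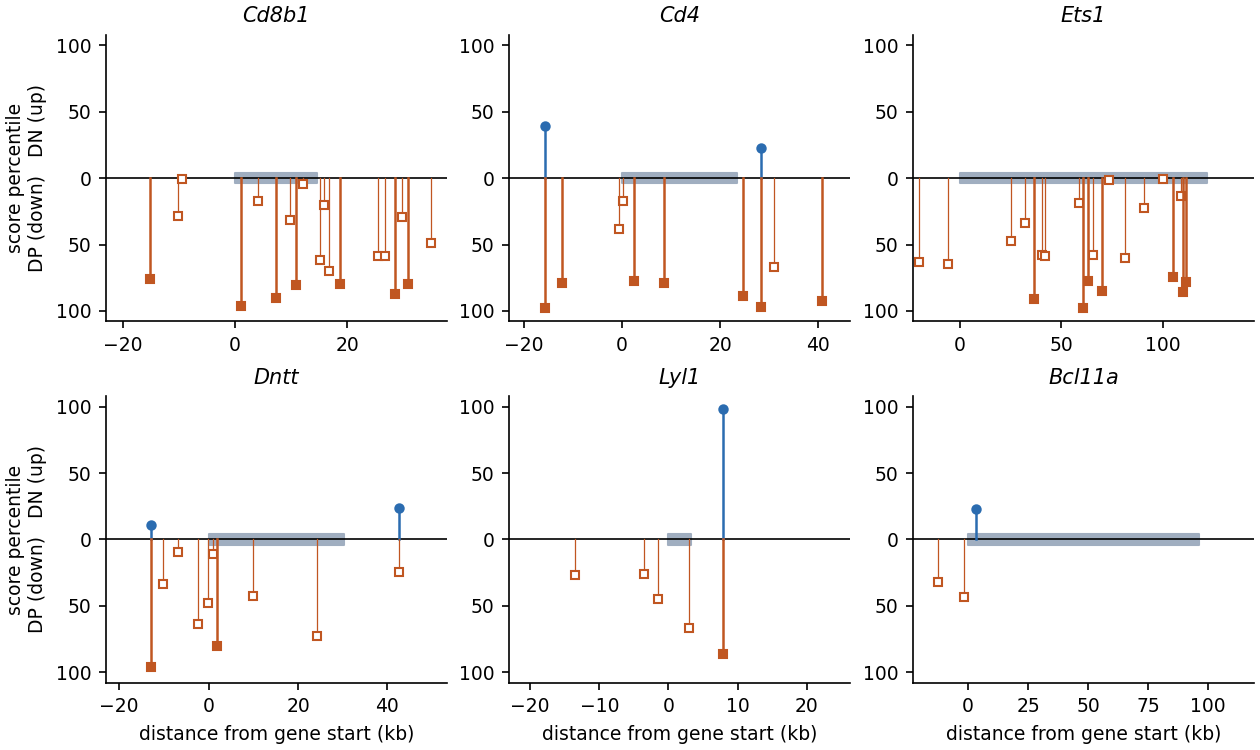
Score percentile within the complete DN list (circles, upward) and DP list (squares, downward) of each Rad21 site within 20 kb of 6 genes, by distance from the gene start in kb along the direction of transcription. Filled squares are among the 9468 highest DP scores, open squares are below, and grey bars are the genes. On this scale the median shared site stands 24.1 points higher in DP. Cd8b1 and Ets1 have DP sites only, and the DN sites of Cd4 and the upstream DN site of Dntt rise by more than that in DP. Lyl1 has its strongest site in DN, and Bcl11a has a DN site without a DP peak.

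Receptor signalling genes apart from the co-receptors moved less uniformly. Ctla4, an inhibitory receptor, had a site upstream, at -18422 bp from its start, that went from 19.7 to 76.8. Thy1 and Lcp2, a surface marker of T cells and an adaptor, had no DN site, with 3 and 2 DP-only sites at equal length. In contrast the strongest sites at Cd3e, Cd3d, Cd3g, Lck, Zap70, Cd5 and Ptprc were shared and steady, with changes from -12.0 points at Zap70 to 8.89 at Lck. At Cd3e a further shared site gained rank. The leading Rad21 sites of these genes were thus of similar rank in both stages.

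Among transcription factors, Ets1, which T cells need for survival, had no DN site and 20 DP sites, 7 of them at equal length, all within the gene and none under a pre-B CTCF peak. A pre-B Rad21 peak overlapped 2 of the 7, among them the widest, of 2997 bp. Myb, Gfi1, Ets2 and Cbfb, the partner of the Runx proteins, likewise had DP sites only at equal length. At the start of Egr2, an early response gene of receptor signalling, the percentile went from 32.5 to 89.8, with a DP peak of 2529 bp. Gata3, required for the CD4 lineage, went from 46.6 to 85.2 at a site 11062 bp past its start. Tox, needed for CD4 T cells, went from 49.2 to 92.4 at an intronic site, Ikzf3 from 50.1 to 96.2 at a site beyond the gene, and Egr1 from 42.4 to 77.4. Those 5 were the factors of this list whose strongest shared site gained 30 points. Over all 41 shared sites near these factors 9 gained and 0 lost, against 974 and 868 of 6916 near all coding genes. The others were weaker sites at Tcf7, Lef1, Id3 and Foxo1. The strongest shared sites at Runx1, Bcl11b, Lef1, Tcf3 and Ikzf1 ranked high in both stages, the lowest of their percentiles being 83.1 in DP at Tcf3. DP-only sites at equal length were also present at Runx1 (6), Ikzf1 (4), Bcl11b (3) and Lef1 (2), and a peak of 3428 bp over the Lef1 start, without a DN peak, had a higher DP score than its strongest shared site.

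Genes known for the DN stage had both gains and losses. Over their 24 shared sites, 7 gained and 3 lost 30 points, the losses being at Lyl1, Mycn and Sfpi1, against 974 gained and 868 lost of 6916 near all coding genes. Only at Lyl1, a factor of early progenitors, was the strongest shared site lost: the site at chr8:87232892-87233714, 7947 bp past the Lyl1 start, went from 98.2 in DN to 55.2 in DP, a loss of 43.0 points. This site lies beyond the end of Lyl1 and within 1000 bp of a coding start. Bcl11a and Lmo2, also progenitor factors, had DN sites and no DP site at equal length. In the complete lists the Lmo2 site 24434 bp past its start was shared and went from 2.30 to 18.9. The Lmo2 site 43301 bp past its start, with a DN percentile of 46.6, had no DP peak. The DN site at Bcl11a, 3110 bp past its start, had no DP peak at any score, and its DN percentile was 23.3. Of the Notch pathway genes, Dtx1 was steady at 65.9 and 65.4, and 3 others ranked higher in DP: the Notch target Hes1 went from 7.36 to 66.2, the site beyond the end of Notch1 from 43.1 to 85.6, and 2 sites within Notch3 from 46.6 to 81.8 and from 37.7 to 78.4. Ly6a, which encodes the surface protein Sca-1, went from 21.3 to 61.6. Il2ra, Cd44, Ptcra and Il2rb, genes that mark or act in DN cells, had DP sites only at equal length, and Il7r and Hhex had none in either list.

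Among the DP stage genes, the strongest shared site gained 30 points at 2 of 16 genes, close to the 12.6% of all coding genes, and of their 21 shared sites 6 gained and 0 lost as much, against 974 and 868 of 6916 near all coding genes. Dntt, the polymerase that adds untemplated bases at junctions, had the largest gain of any list gene at its strongest shared site: at chr19:41090195-41091408, at -12964 bp from its start, the percentile went from 10.3 to 84.8. A second shared site, 42487 bp past the Dntt start, went from 22.0 to 3.63. The strongest shared site at Rag1 and Rag2 went from 60.2 to 71.0, below the limit of 30 points, and a further site upstream, at -15926 bp from the Rag1 start, went from 37.5 to 81.5. Arpp21, a gene with high expression in DP cells, had no DN site and 3 DP-only sites at equal length.

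**Figure D5:**
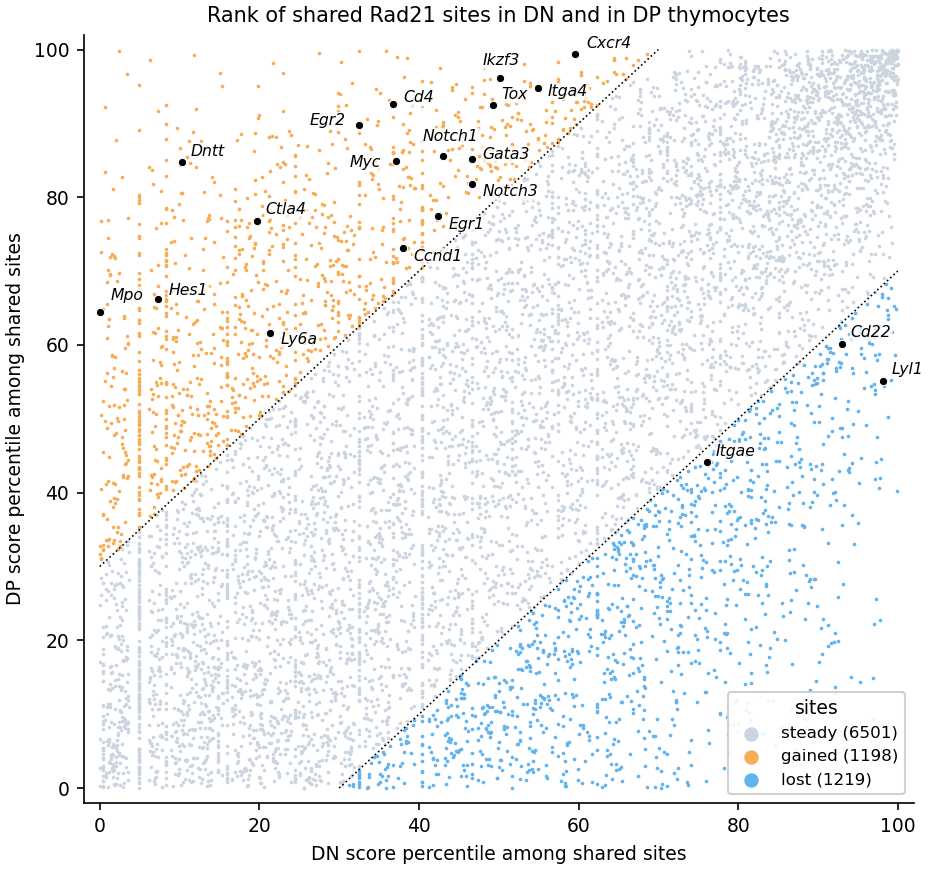
Score percentile among the 8918 shared sites in DN (horizontal) and DP (vertical), 1 point a site, coloured by whether the site gained or lost 30 points (dotted lines) in DP. Black points are the strongest shared sites of the list genes named here that changed by 30 points or more: most lie above the upper line and 3, at Lyl1, Itgae and Cd22, below the lower one.

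In the remaining lists, Myc, the growth regulator, went from 37.1 to 84.9 at a peak over its start that was 3027 bp wide in DP. Ccnd1 went from 38.0 to 73.1, while Ccnd3, the D-type cyclin that thymocytes need for expansion, was steady at 83.2 and 92.7 and added 5 DP-only sites at equal length. Among homing genes, the peak at the start of Cxcr4, a chemokine receptor of DN and DP cells, went from 59.6 to 99.4 and that at the start of Itga4 from 54.9 to 94.8. Itgae, an integrin chain of mature T cells, went from 76.1 to 44.1. No cohesin or CTCF gene changed by 30 points at its strongest shared site, and Rad21 itself had no site in either list. Trp53, Nipbl, Wapal and Blnk had DP sites only at equal length, and Mau2 a DN site only. Of the 19 B cell and myeloid genes, Mpo gained, from 0.0449 to 64.4, Cd22 went from 93.1 to 60.2, and Pax5, Ms4a1, Csf1r, Lyz2, Cebpa and Fcgr3 had no site in either list. The Mpo site lies beyond the end of that gene and within 1000 bp of a coding start. Its DN score of 86.53 was close to the lowest of the DN list, 86.45.

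DP-only and DN-only sites were also counted along chromosomes, and whether they cluster was not tested. In windows of 1000000 bp, chosen after the values were seen and given without a test, the surplus of DP-only over DN-only sites at equal length was largest, 17 to 0, at chr6:71000001-72000000, which holds Cd8a and Cd8b1, and at chr17:52000001-53000000, which lies upstream of Satb1. The windows with Ets1 and Fli1 (16 to 1) and with Rag1 and Rag2 (14 to 1) were among the next. A window at chr12:108000001-109000000 that holds no named coding gene and lies beyond the end of Bcl11b, which spans chr12:109148613-109241812 on the minus strand, had 11 to 0. The largest surplus of DN-only sites, 10 to 0, was at chr7:113000001-114000000, a cluster of olfactory receptor genes. In the complete lists that window held 4 shared sites, so some of its DN-only sites had a DP peak below the cut. Of 1818 windows, DP-only sites led by 5 or more in 126 and DN-only sites in 46, while DN-only sites led at all in 910 windows and DP-only sites in 612. Large surpluses were thus more often of DP-only sites, and small ones more often of DN-only sites.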

How the data were processed

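Peak lists of Rad21 in DN and DP thymocytes were used, with Rad21 and CTCF in pre-B cells and CTCF in IL7-cultured pro-B cells as references. The authors aligned reads with Bowtie 0.12.9 to mm9, keeping reads with up to 3 locations, and called peaks against input with MACS 1.4.2 (versions from the submitters' processing notes). The deposited unit is the MACS score of each peak. It depends on depth, which is unknown, so scores were used as ranks within a list. Scores tie near the top: 39 DP peaks have 3100 or more.

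Overlaps of 1 bp or more were joined into sites, each with the highest score of either list. Genes and starts came from the GENCODE annotation of the same build. Of the list genes, Gfi1 and Ptcra are not typed as coding there and were added by symbol, Spi1 was matched as Sfpi1, and Cxcr3 and Gata1, on another chromosome, were left out. The names given are those of the 10 largest gains and losses, the 10 highest DP-only and DN-only sites, and list genes past 30 points or with sites in 1 stage, using the overlapping or, within 20000 bp, nearest coding gene. Genes named for other reasons (steady genes, Gfi1 at the Evi5 site, and windows) were chosen after their values were seen. A few list genes are counted and not reported by name here. Members and lists were chosen with earlier results of these data known.

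Alternatives were an overlap of 50%, an equal-length DP list, scores of at least 100, loci without extension, starts within 5000 bp, at most 1 mismatch, 50000 bp around genes, and percentiles of the complete lists. Sequence words, width classes, the omission of sites at starts or of wide DP peaks, the split by pre-B CTCF, windows and gene families were added after the data had been examined. Overlap, rank and consensus steps were tested on simulated data. Intervals came from scipy 1.17.1, mm9 sequence from samtools 1.23.1 and pysam 0.24.0, and plots from matplotlib 3.10.9, under Python 3.11.15 with numpy 2.4.6.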

Additional observations from a re-analysis of the deposited data

Results flagged for a closer look

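Peaks on the sex chromosomes lay outside the comparison. Chromosome X held 144 of the 9701 DN peaks, 1.48% (exact 95% interval 1.25 to 1.75), and 756 of the 36743 DP peaks, 2.06% (1.91 to 2.21). Chromosome Y held 5 DP peaks and 0 DN peaks, which allows a share of up to 0.0309% of the DN list. Chromosome X held 2.22% of the Rad21 peaks of pre-B cells, 2.57% of the CTCF peaks of the same cells and 2.70% of those of pro-B cells grown in IL7. The sex of the mice was not used.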

How the results depend on the processing

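No paired analysis was possible because each stage has 1 library and no test was run. At equal length the overlapped share was 65.5% of DN and 65.2% of DP peaks, and with scores of at least 100 it was 91.7% and 30.7%. With percentiles of the complete lists, centred on their median, 720 sites lost rank instead of 1219 and 1522 gained it instead of 1198, so gains no longer balanced losses; in that setting 30 of the 41 named rank changes kept their side of the limit, 11 fell short of it and 0 reversed. Starts for DN-only, shared and DP-only sites were at 8.06%, 12.4% and 29.96% at equal length, and in the complete lists at 5.23%, 11.4% and 27.9% within 1000 bp and 17.1%, 28.4% and 41.7% within 5000 bp. The consensus, here searched over the whole peak and so dependent on its width, was held by 54.0%, 62.1% and 44.2% at equal length, in the complete lists by 47.1%, 60.3% and 29.8% with at most 2 mismatches and 16.1%, 22.5% and 8.30% with at most 1, and by 36.3% of DP-only sites with scores of at least 100. Pre-B CTCF peaks overlapped 84.3%, 96.8% and 47.9% in the complete lists, 92.5%, 98.0% and 68.0% at equal length and 88.3%, 97.5% and 58.0% with scores of at least 100. Sites near list genes numbered 332 at equal length and 988 in the complete lists. In every one of these settings DP-only sites were more often at starts and less often under pre-B CTCF peaks than shared sites. DN-only sites held the consensus more often than DP-only sites in each setting. With the DP peaks of 1000 bp or more left out, which was chosen after seeing the data, DP-only sites made up 39.6% near transcription factor genes and 22.0% near all coding genes. Read depth is unknown for both libraries, so a site without a DN peak is one that was not called, and its absence is not shown.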

Other observations

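Gene families taken by symbol, after the data had been seen, were compared in the same way, at equal length and without a test. Near proteasome subunit genes, which all cells use, 21 of 51 sites were DP-only and 7 DN-only, and 13 of the 21 were at a start. Near the GTPase genes of immunity (Gimap, Gbp and Irgm), 12 of 25 sites were DP-only and 2 DN-only. Zinc finger genes of the Zfp series had 60 DP-only and 31 DN-only sites of 190. Ribosomal protein genes had 17 and 9 of 61.

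Other families had more DN-only than DP-only sites. Solute carrier genes had 58 DP-only and 80 DN-only sites of 310, and chemokine genes 4 and 5 of 12. Collagen genes had 7 DP-only and 18 DN-only sites of 44, and olfactory receptor genes had 7 and 19 of 50. Keratin genes had 0 DP-only and 6 DN-only sites of 9, and vomeronasal receptor genes 0 and 5 of 8. Many of these DN-only sites had a DP peak below the cut. In the complete lists, shared sites numbered 9 instead of 3 near keratin genes and 34 instead of 19 near collagen genes. They numbered 32 instead of 24 near olfactory receptor genes, 243 instead of 172 near solute carrier genes and 6916 instead of 4870 near all coding genes. Near all coding genes the split was 2622 DP-only to 2369 DN-only of 9861 sites. Potassium channel genes were close to even, with 16 DP-only and 18 DN-only sites of 71. Several of these families are clusters of neighbouring genes, so their sites share a few loci, and the families were picked as examples.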
